A study of Mus musculus with 6 samples.

Results

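The transcripts of 9 complement genes were followed in whole mouse lung: the serine protease genes *C1ra* and *C1s1*, the components *C4b*, *C2*, *C3* and *Cfb*, the inhibitor gene *Serping1*, and the anaphylatoxin receptor genes *C3ar1* and *C5ar1*. They were taken by gene symbol from a table of 54532 genes, in which each symbol had 1 entry, and all 9 were among the 18689 genes that reached 0.5 CPM (counts scaled to the library total) in at least 1 library. The study compared 3 WT mice with 3 mice that lack *Ism1* (ISM1-/-), the gene of the secreted lung protein isthmin-1, in a C57BL/6J background. All 6 mice were untreated and 2 months old, and their lungs were perfused with cold PBS to wash out blood before RNA was taken from both sides of the lung, 1 library per mouse. The WT mice were bought from a supplier and the ISM1-/- mice were bred in-house, so a difference of genotype and a difference of supplier cannot be told apart in these libraries. The sex of the mice and the litters they came from are not given in the sources used here.

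Complement is a cascade of plasma proteases that marks surfaces for removal, attracts leukocytes and can open pores in membranes. C1 starts the classical pathway: C1q binds a target and turns on the proteases C1r and C1s, which cut C4 and C2. The alternative pathway uses factor B, cut by factor D, and both pathways meet at C3. Cutting C3 and C5 releases the anaphylatoxins C3a and C5a, which act through C3AR1 and C5AR1 and are known in the airway for recruiting inflammatory cells. The liver makes most of the plasma proteins, while lung epithelium, fibroblasts and macrophages make several of them locally.

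None of the 9 genes passed the test between the genotypes. The edgeR quasi-likelihood (QL) test, adjusted over all genes by the Benjamini-Hochberg method, called 0 of 9 at an adjusted p under 0.1, where it called 882 of the 18689 genes tested (4.72%). The adjusted p of the 9 genes lay between 0.441 and 0.992. At an unadjusted p under 0.05 the same test also had 0 of 9, where 15.8% of all genes tested passed. With at least a 2-fold change asked for in addition, 0.567% of all genes tested and 0 of 9 passed. DESeq2 called 0 of 9 as well, where it called 7.46% of the genes to which it gave an adjusted p. The largest upward differences were a ratio of 1.12 (ISM1-/- over WT) in *Cfb* and *C3ar1*, and the largest downward one was a ratio of 0.924 in *Serping1*. The intervals around these ratios limit what the data leave room for: the 95% interval lay within 1.5-fold of no change in either direction in 8 of the 9 genes, and within 2-fold in all 9. In 4 genes the fitted change was upward and in 5 downward. The median log2 fold change was −0.01 over the 9 genes and 0.00 over all genes tested, and the median size of the log2 fold change without its sign was 0.07 and 0.11 respectively. The libraries of the genotypes overlapped in 8 of the 9 genes, and *Serping1* was the exception. Over all genes tested, 21.6% had no overlap between the genotypes.

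Total counts lay between 37606133 and 42345042 per library, and the 9 genes took 0.201%, 0.172% and 0.177% of them in WT replicates 1 to 3 and 0.188%, 0.159% and 0.186% in the ISM1-/- replicates. The targeted gene kept its transcript: *Ism1* was at 82.2, 77.5 and 76.9 CPM in WT and at 65.5, 66.1 and 75.7 CPM in the libraries labelled ISM1-/- (log2 fold change −0.19, adjusted p = 0.217 in the edgeR QL test), so their genotype is known from the labels and was not seen in the counts. WT replicate 1 was high in genes of heart muscle, with 704 CPM of the cardiac myosin gene *Myh6* against 232 and 274 in the other WT libraries, and it stood apart from them in several of the genes described here too. Values are CPM after TMM scaling, which corrects for library size and composition, and errors are SDs over 3 libraries.

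**Figure D1:**
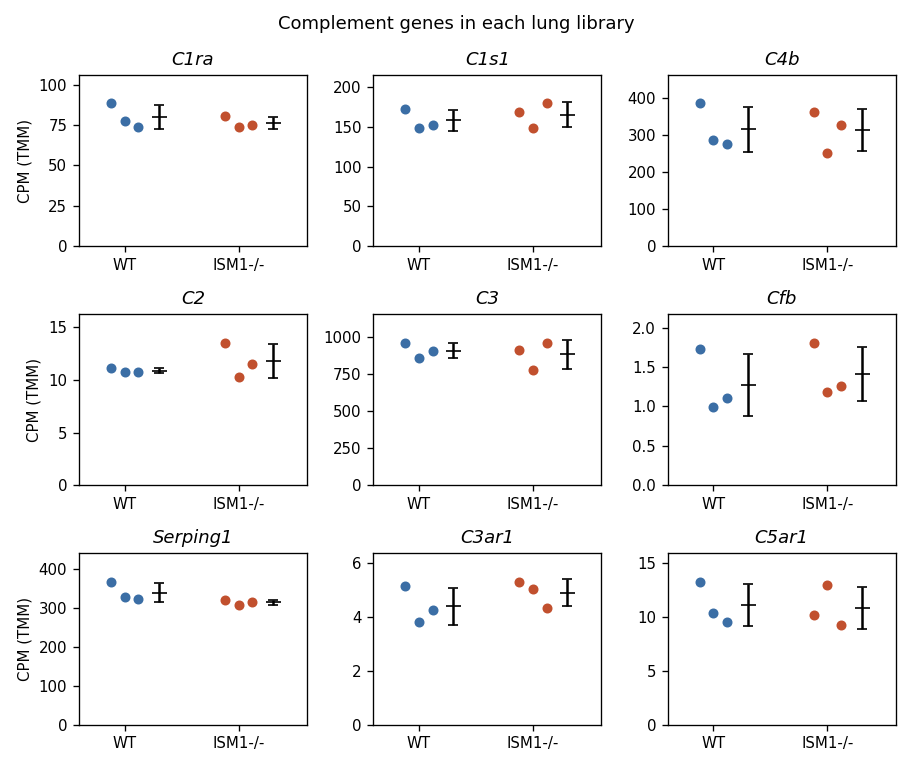
CPM after TMM scaling of the 9 complement genes on linear axes from 0. Each point is 1 mouse, in the order of replicates 1 to 3, WT in blue and ISM1-/- in red, and bars give the mean and SD over 3 libraries. The genotypes overlap in 8 panels, and in the *Serping1* panel the ISM1-/- points (306 to 321 CPM) sit just under the WT points (324 to 367 CPM).

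*C1ra* and *C1s1* encode the paired proteases of the C1 complex and are neighbours on chromosome 6. *C1ra* (ENSMUSG00000055172, chromosome 6, 124512405 to 124523443, forward strand, GRCm38) was at 88.5, 77.6 and 74.0 CPM in WT and 80.4, 73.6 and 74.9 CPM in ISM1-/-. The genotypes overlapped, with the highest value in WT replicate 1, and their means were 80.0 ± 7.56 CPM in WT and 76.3 ± 3.64 CPM in ISM1-/- (SD, n = 3). The log2 fold change was −0.07 (95% interval −0.24 to 0.10, adjusted p = 0.734 from the edgeR QL test). *C1s1* (ENSMUSG00000038521, 124530345 to 124542359, reverse strand) was at 173, 149 and 152 CPM in WT and 169, 148 and 179 CPM in ISM1-/-. Here replicate 2 was the lowest library of each genotype, and the means were 158 ± 13 and 165 ± 15.9 CPM. The log2 fold change was 0.07 (95% interval −0.12 to 0.25, adjusted p = 0.778 from the same test). Both genes have a near-copy beside them. A 150-base stretch, the length of 1 read, was shared by the *C1ra* transcript and its copy *C1rb* at 26.3% of all positions and by *C1s1* and *C1s2* at 2.86%, so reads there could be split or dropped. *C1rb* had 1 count in 1 of the 6 libraries. The antisense gene *Gm16567* lies over 18.4% of the exon bases of *C1s1*. It had 105 to 143 counts in the WT and 152 to 201 in the ISM1-/- libraries, against a mean of 6399 counts of *C1s1*. After scaling, *Gm16567* was at 2.78, 2.92 and 3.70 CPM in WT and 3.57, 5.30 and 4.13 CPM in ISM1-/-. The genotypes overlapped, and it did not pass (adjusted p = 0.252 from the edgeR QL test).

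*C4b* encodes C4, the component that C1s cuts first and that binds covalently to the target surface. Mice carry a near-identical neighbour, *C4a*, on the same strand of chromosome 17, and the counts of both depend on the bases that tell them apart. In an alignment of the 5217 coding bases of *C4b* with the *C4a* transcript, 5006 bases (96%) were the same, the longest identical run was 433 bases, and 8.26% of the 150-base stretches of the *C4b* transcript were found unchanged in *C4a*. The 90 aligned bases with the most differences, 14, are shown as the stretch where a read can be given to one gene most safely. Both are read 5′ to 3′ on the reverse strand of GRCm38, from chr17:34735430-34735519 in *C4b* and from chr17:34816086-34816175 in *C4a*, with the bases that differ in capitals.
C4b: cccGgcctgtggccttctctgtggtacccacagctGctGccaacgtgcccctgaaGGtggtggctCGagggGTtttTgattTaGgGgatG
C4a: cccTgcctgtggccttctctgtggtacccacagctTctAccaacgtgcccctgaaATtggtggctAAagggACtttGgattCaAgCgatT

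*C4b* (ENSMUSG00000073418, chromosome 17, 34728380 to 34743882, reverse strand) was at 386, 286 and 276 CPM in WT and 363, 253 and 328 CPM in ISM1-/-. It varied widely between mice and the genotypes overlapped, with replicate 1 the highest library of each. The means were 316 ± 60.9 CPM in WT and 315 ± 56.2 CPM in ISM1-/-, and the log2 fold change was −0.01 (95% interval −0.34 to 0.33, adjusted p = 0.992 from the edgeR QL test). *C4a* was at 1.46, 1.81 and 1.34 CPM in WT and 1.67, 1.24 and 1.92 CPM in ISM1-/- (log2 fold change 0.07, adjusted p = 0.932 from the same test), so nearly all counts of the pair went to *C4b*. How the counting treated reads that match both genes is not stated.

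*C2* encodes the protease of the classical C3 convertase, and *Cfb* its counterpart of the alternative pathway, factor B. The genes lie next to each other on the reverse strand of chromosome 17. *C2* (ENSMUSG00000024371, 34862604 to 34898265) was at 11.1, 10.7 and 10.7 CPM in WT and 13.5, 10.3 and 11.5 CPM in ISM1-/-. The WT libraries were nearly equal, with a coefficient of variation of 2.05%, and the ISM1-/- libraries spread to both sides of them. The means were 10.9 ± 0.223 CPM in WT and 11.8 ± 1.63 CPM in ISM1-/-, with a log2 fold change of 0.12 (95% interval −0.13 to 0.36, adjusted p = 0.675 from the edgeR QL test). *Cfb* (ENSMUSG00000090231, 34856374 to 34862518) had the fewest counts of the 9 genes, with 65, 41 and 43 over the WT and 77, 45 and 49 over the ISM1-/- libraries. These are 1.72, 0.988 and 1.11 CPM in WT and 1.81, 1.19 and 1.26 CPM in ISM1-/-, again with replicate 1 the highest library of each genotype. The log2 fold change was 0.16 with the widest interval of the 9 genes (95% interval −0.46 to 0.78, adjusted p = 0.847 from the same test), which reaches a ratio of 1.72. The coefficient of variation between mice was 30.9% in WT and 24.2% in ISM1-/-. The annotation holds a read-through gene, *Gm20547* (34856412 to 34882042), on the same strand across both genes. Its exons cover 79.5% of the exon bases of *Cfb* and 42.8% of those of *C2*, and its count was 0 in all 6 libraries. How reads that lie in both genes were counted is not given in the sources used here, so the levels of *Cfb* and *C2* are uncertain, while the comparison between genotypes used the same counting in every library.

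*C3* encodes the component at which all pathways meet. It was by count the most abundant of the 9 genes (ENSMUSG00000024164, chromosome 17, 57203970 to 57228136, reverse strand), with a mean of 35485 counts per library. It was at 959, 858 and 910 CPM in WT and 912, 778 and 964 CPM in ISM1-/-. The lowest and the highest library were both ISM1-/-, so the WT values lay inside the ISM1-/- range. The means were 909 ± 50.6 CPM in WT and 885 ± 96.1 CPM in ISM1-/-, and the log2 fold change was −0.04 (95% interval −0.23 to 0.15, adjusted p = 0.879 from the edgeR QL test). The interval runs from a ratio of 0.855 to one of 1.11.

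*Serping1* encodes C1 inhibitor, the serpin that inactivates C1r, C1s and the MASP proteases and also restrains kallikrein. It was the member with the lowest unadjusted p and the only one whose genotypes did not overlap (ENSMUSG00000023224, chromosome 2, 84765387 to 84775444, reverse strand). Its level was 367, 327 and 324 CPM in WT and 321, 306 and 314 CPM in ISM1-/-. The gap between the lowest WT and the highest ISM1-/- library was small beside the distance of WT replicate 1 from the others. The means were 339 ± 24.0 CPM in WT and 313 ± 7.47 CPM in ISM1-/-. This is a log2 fold change of −0.11 (SE 0.0637, 95% interval −0.26 to 0.03), which did not pass (unadjusted p = 0.106 and adjusted p = 0.441 in the edgeR QL test). A two-sided exact permutation test on the CPM gave p = 0.1, the smallest that 3 libraries against 3 allow. Leaving out 1 library at a time gave log2 fold changes between −0.15 and −0.05. The FPKM ratio of *Serping1* to *C1s1*, the inhibitor beside one of its targets, was 2.16, 2.24 and 2.16 in WT and 1.94, 2.10 and 1.78 in ISM1-/-. It was lower in all 3 ISM1-/- libraries (means 2.18 ± 0.0443 and 1.94 ± 0.161, exact permutation p = 0.1), and adjusted over the 8 ratios computed, p was 0.4.

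*C3ar1* and *C5ar1* encode the G protein-coupled receptors of C3a and C5a and are known mainly from myeloid cells. *C3ar1* (ENSMUSG00000040552, chromosome 6, 122847138 to 122856161, reverse strand) had 157 to 193 counts in the WT and 169 to 225 in the ISM1-/- libraries, which are 5.12, 3.78 and 4.24 CPM and 5.29, 5.03 and 4.33 CPM. The genotypes overlapped through WT replicate 1. The means were 4.38 ± 0.679 CPM in WT and 4.89 ± 0.497 CPM in ISM1-/-, with a log2 fold change of 0.16 (95% interval −0.18 to 0.50, adjusted p = 0.684 from the edgeR QL test). *C5ar1* (ENSMUSG00000049130, chromosome 7, 16246743 to 16259540, reverse strand) was at 13.2, 10.3 and 9.54 CPM in WT and 10.2, 12.9 and 9.23 CPM in ISM1-/-. One library of each genotype was high, WT replicate 1 and ISM1-/- replicate 2, and the other four lay between 9.23 and 10.3 CPM. The log2 fold change was −0.03 (95% interval −0.38 to 0.31, adjusted p = 0.948 from the same test). The related receptor gene *C5ar2*, which shares no 150-base stretch with *C5ar1*, was at 5.65, 5.06 and 4.47 CPM in WT and 3.90, 5.14 and 3.69 CPM in ISM1-/- (log2 fold change −0.25, adjusted p = 0.503). Neutrophils are among the cells that carry C5AR1. Of 8 neutrophil markers tested 5 were called higher and 0 lower, beside 1.38% and 3.34% of all genes tested. The summed level over the list was 103 to 122 CPM in WT and 130 to 177 CPM in ISM1-/-. *Ltf*, which counts in this sum, was the 1 marker tested with a lower fitted level. It was at 56.7, 50.3 and 54.3 CPM in WT and 35.3, 45.3 and 49.0 CPM in ISM1-/- (log2 fold change −0.32, adjusted p = 0.187 from the edgeR QL test). The part of neutrophils in the level of *C5ar1* was not tested. In whole-lung RNA, more or fewer cells of a type and more or less RNA per cell cannot be told apart.

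**Figure D2:**
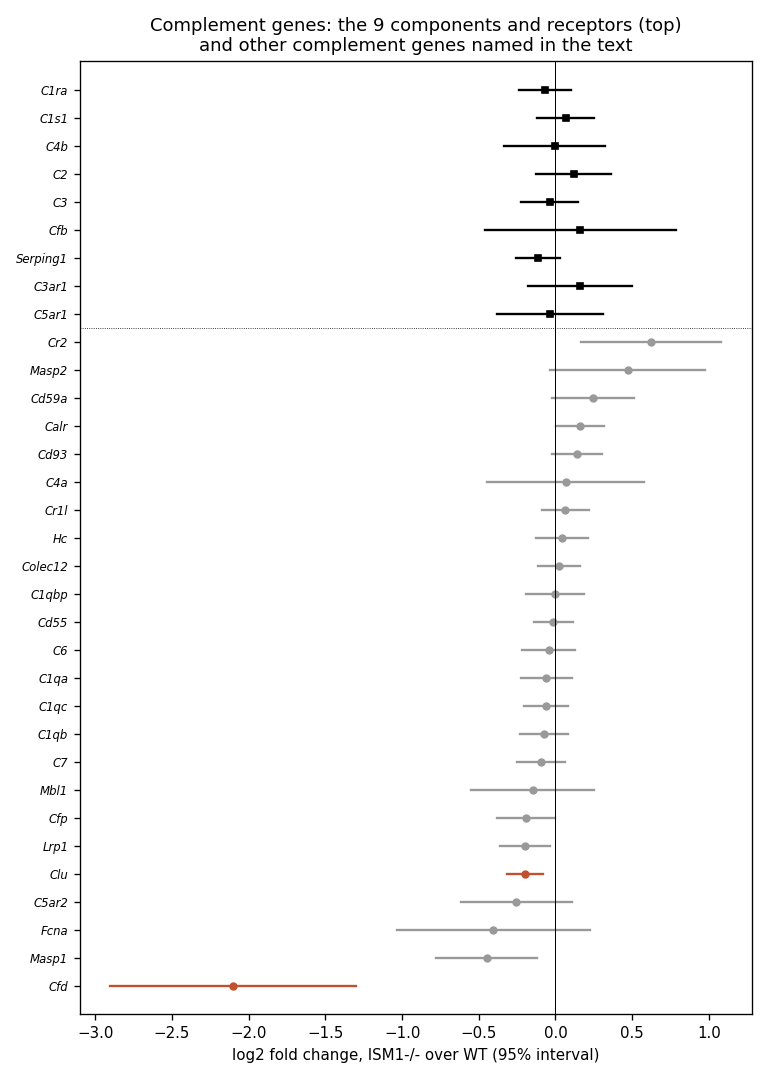
Log2 fold change (ISM1-/- over WT) with its 95% interval from edgeR's fit, for the 9 genes (black squares, top) and the other complement genes named in the text (circles, ordered by fold change). Red marks an adjusted p under 0.1, which *Clu* and *Cfd* reached, and all 9 black intervals cross 0.

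Between genes, levels were compared on the deposited FPKM, which divide counts by library total and gene length. The mean FPKM over the 6 libraries was 538 for *C3*, 226 for *Serping1*, 137 for *C4b*, 110 for *C1s1*, 26.2 for *C1ra*, 9.47 for *C2*, 5.74 for *C5ar1*, 1.08 for *C3ar1* and 0.767 for *Cfb*. Within each library, *C4b* was above *C1s1* and *C3ar1* above *Cfb*, but the ranges of these neighbours over the 6 libraries overlapped, and the ranges of all other neighbours did not. The receptor genes and *Cfb* were at the low end of the order, and *C3*, *Serping1* and *C4b* at the high end.

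These levels depend on what is taken as the length of a gene. The length behind the deposited FPKM equals the mean length of the annotated transcripts, short and incomplete ones included, which is 1666 bases for *C3*, where the exons of the gene together hold 5143. For *C1ra*, with 1 length of 2981 bases by both definitions, nothing changes. Per kilobase of all exons, *C3* was at 174 CPM and *Serping1* at 140 CPM, and their ranges now overlapped. *C4b* was then at 55.3, *C1s1* at 51.7, *C1ra* at 26.2, *C5ar1* at 4.24, *C2* at 2.92, *C3ar1* at 1.08 and *Cfb* at 0.476 CPM per kilobase, so *C5ar1* and *C2* changed places. The level of *C3* was 20.6 times that of *C1ra* by FPKM and 6.66 times by all exons.

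**Figure D3:**
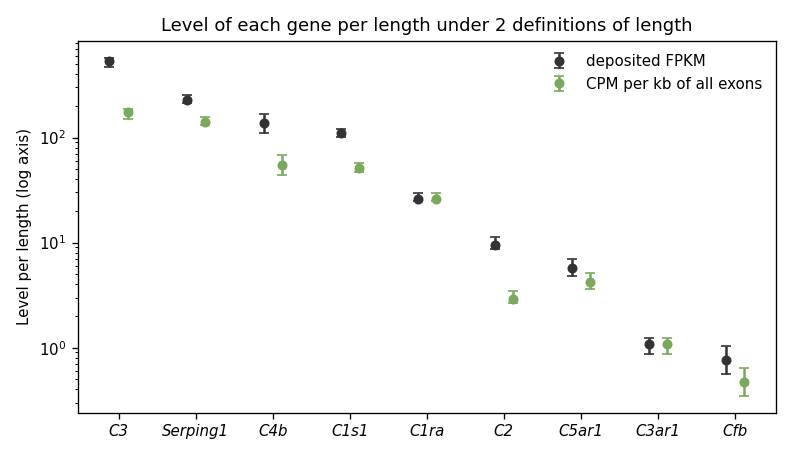
Level of each of the 9 genes per length on a log axis, as deposited FPKM (black) and as CPM per kilobase of all exons (green). Points are means over 6 libraries and bars run from the lowest to the highest library. The 2 definitions coincide for *C1ra* and *C3ar1* and stand farthest apart for *C2* (9.47 and 2.92) and *C3* (538 and 174).

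Ratios between pairs of complement genes were set side by side within each library. The FPKM ratio of *C1s1* to *C1ra* was 4.01 ± 0.150 in WT and 4.40 ± 0.409 in ISM1-/- (SD, n = 3, exact permutation p = 0.2), and that of *C3* to *C4b* was 4.04 and 3.92 (exact permutation p = 0.8). The ratio of *C5ar1* to *C3ar1* was 5.72 ± 0.561 in WT and 5.01 ± 0.753 in ISM1-/- (exact permutation p = 0.2). In each of these ratios the genotypes overlapped, and the lowest p adjusted over the 8 ratios computed was 0.4.

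The spread between mice was in part shared among the 9 genes. WT replicate 1 was the highest library in 4 of them, ISM1-/- replicate 1 in 3 and ISM1-/- replicate 3 in 2, while ISM1-/- replicate 2 was the lowest in 6. With the log2 CPM of each gene set to a mean of 0 and an SD of 1 over the 6 libraries (z score), the mean over the 9 genes was 1.09, −0.60 and −0.52 in WT replicates 1 to 3 and 0.64, −0.59 and −0.01 in the ISM1-/- replicates. Each genotype thus had 1 library well above its others, and the pattern did not follow genotype. Over the 10825 genes whose mean reached 10 CPM, the 5 whose log2 CPM followed this mean most closely were *Gbp6*, *Psme1*, *Sirt4*, *Igtp* and *Irgm2* (Pearson r from 0.980 to 0.991 over 6 libraries, and from 0.958 to 0.985 over the 5 libraries other than WT replicate 1). With so few libraries an r is imprecise. Of the 10825 genes, 64 had an r over 0.9 and 62 an r under −0.9. The libraries share their scaling, and no test was made.

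*Igtp* and *Irgm2* encode interferon-inducible GTPases and *Gbp6* a guanylate-binding protein. *Igtp* was at 83.0, 33.0 and 30.8 CPM in WT and 60.8, 33.3 and 50.9 CPM in ISM1-/-, and *Gbp6* at 25.5, 12.2 and 11.1 CPM in WT and 20.1, 11.6 and 14.5 CPM in ISM1-/-. *Irgm2* was at 144, 74.5 and 66.5 CPM in WT and 118, 73.6 and 97.5 CPM in ISM1-/-. These genes were high in replicate 1 of each genotype, and *Igtp* and *Irgm2* lie over each other on the same strand, so their counts may be split. *Psme1*, the gene of a proteasome activator subunit, was also highest in these libraries, over a narrower range, at 123, 109 and 111 CPM in WT and 119, 111 and 114 CPM in ISM1-/-. In a separate list of 12 interferon targets, 0 were called in either direction (background 4.72%), and 10 had a higher and 2 a lower fitted level in ISM1-/-. Their summed level was 683, 466 and 430 CPM in WT and 626, 525 and 536 CPM in ISM1-/-, so WT replicate 1 and ISM1-/- replicate 1 were the highest here too. The part of these genes in the spread of the complement genes was not tested.

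**Figure D4:**
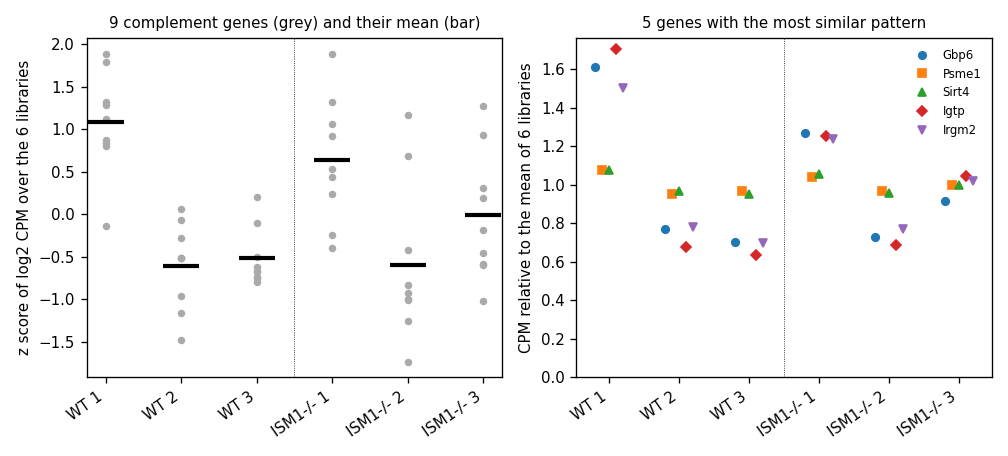
Left, z scores of the 9 complement genes in each library (grey points) and their mean (black bars). Right, the 5 genes with the highest Pearson r to that mean, as CPM relative to the mean of the 6 libraries (linear axis from 0). Replicate 1 of each genotype is high in both panels (mean z 1.09 and 0.64), and *Psme1* and *Sirt4* follow over a narrower range than the other genes.

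Of 54 other complement genes, 40 passed the filter, and 2 were called, both lower in ISM1-/-: *Cfd* and *Clu*. This is beside 3.34% of all genes tested called lower and 1.38% called higher. The fitted level was higher in 17 and lower in 23 of the 40, with a median log2 fold change of −0.04. *Cfd* encodes factor D (adipsin), the protease that cuts factor B and a known product of fat cells, and in the fit of all 6 libraries it had the largest change of these 40 genes. Its level was 103, 87.6 and 122 CPM in WT and 12.9, 17.2 and 42.7 CPM in ISM1-/-. All 3 ISM1-/- libraries lay under all 3 WT libraries, and replicate 3 was the highest of each genotype. The means were 104 ± 17.3 and 24.3 ± 16.1 CPM, a log2 fold change of −2.10 (SE 0.358, adjusted p = 0.0222 in the edgeR QL test). With 1 library omitted at a time, *Cfd* was called in each of the 6 fits, with log2 fold changes from −2.79 to −1.79. The FPKM ratio of *Cfd* to *C3* was 0.213 ± 0.0323 in WT and 0.050 ± 0.029 in ISM1-/- (exact permutation p = 0.1, and 0.4 adjusted over the 8 ratios), while *Cfb* and *C3* themselves overlapped between genotypes as given above.

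*Cfd* fell together with genes of fat cells. Of 8 adipocyte markers, 6 were called lower and 0 higher, beside 3.34% and 1.38% of all genes tested. The summed level of the list was 293 to 315 CPM in WT and 197 to 243 CPM in ISM1-/-, without overlap. *Adipoq*, the adiponectin gene, was at 14.8, 10.4 and 11.9 CPM in WT and 2.61, 2.16 and 6.51 CPM in ISM1-/-, and *Fabp4*, a fatty acid carrier, at 49.3, 37.7 and 36.4 CPM in WT and 9.29, 11.8 and 23.8 CPM in ISM1-/-. As in *Cfd*, ISM1-/- replicate 3 was the highest ISM1-/- library in both genes. The order in WT differed, with *Cfd* highest in replicate 3 and *Adipoq* and *Fabp4* highest in replicate 1. *Lipe* and *Pnpla2*, lipase genes used by many cell types, were the 2 that did not pass (adjusted p = 0.743 and 0.110 from the edgeR QL test). These 2 genes also made up most of the summed level of the list. *Lipe* was at 67.7 to 74.7 CPM in WT and 58.6 to 72.0 CPM in ISM1-/-, and *Pnpla2* at 130 to 139 CPM in WT and 114 to 122 CPM in ISM1-/-. The part of the adipocyte genes in the fall of *Cfd* was not tested.

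**Figure D5:**
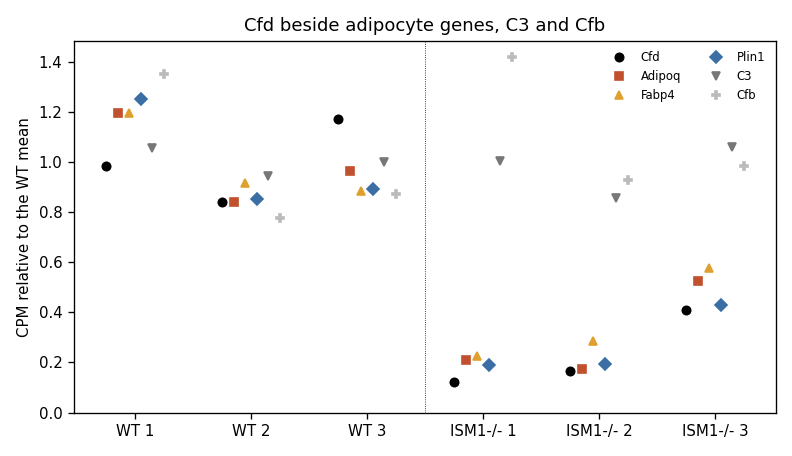
CPM of *Cfd*, the adipocyte genes *Adipoq*, *Fabp4* and *Plin1*, and the complement genes *C3* and *Cfb* in each library, relative to the WT mean (linear axis from 0). *Cfd* and the adipocyte genes are low in all 3 ISM1-/- libraries and least so in replicate 3, where *Cfd* is at 42.7 CPM, while *C3* and *Cfb* overlap between the genotypes, with *Cfb* highest in replicate 1 of each.

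*Clu*, which encodes clusterin, an inhibitor of the membrane attack complex, fell slightly, from 231 ± 7.79 CPM in WT to 201 ± 3.19 CPM in ISM1-/-. Its log2 fold change was −0.20 (SE 0.0536, adjusted p = 0.0942 in the edgeR QL test), and of the 6 fits with 1 library omitted it was called in 1, that without ISM1-/- replicate 3. The genes of C1q, the recognition part of C1, stayed close to 0 on the log2 scale, at −0.06 for *C1qa*, −0.07 for *C1qb* and −0.06 for *C1qc* (adjusted p = 0.771, 0.674 and 0.705 from the same test), and 0 of 5 tested genes of the classical list were called. In the lectin list 0 of 7 were called, led by the collectin gene *Colec12* at 0.02, with *Mbl1* at −0.15 and *Fcna* at −0.41 at low counts. The MASP protease genes of that list are named after their values were seen: *Masp1* was at 5.20, 4.10 and 4.32 CPM in WT and 3.06, 3.53 and 3.38 CPM in ISM1-/- (log2 fold change −0.45, adjusted p = 0.165 in the edgeR QL test), and *Masp2* at 1.22, 1.18 and 1.01 CPM in WT and 1.41, 1.37 and 1.95 CPM in ISM1-/- (log2 fold change 0.47, adjusted p = 0.357). The genotypes did not overlap in either gene, lower in ISM1-/- in *Masp1* and higher in *Masp2*, and neither passed the test. *Cfp*, the gene of properdin, which stabilises the alternative convertase, was the other gene of the alternative list at −0.19 (adjusted p = 0.310), below WT in all 3 ISM1-/- libraries. The lack of overlap in *Masp1*, *Masp2* and *Cfp* is to be read beside the 21.6% of all genes tested that had no overlap. In the terminal list 0 of 4 were called. *Hc*, which encodes C5, the precursor of the ligand of C5AR1, had 531 FPKM, close to *C3*. Per kilobase of all exons it was at 136 CPM, against 174 CPM for *C3*, so this closeness depends on the length used. The log2 fold change of *Hc* was 0.04 (adjusted p = 0.842), with *C7* at −0.09 and *C6* at −0.05. *C8b* was at 0 counts in all 6 libraries.

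*Clu* was the 1 call among 7 soluble regulators, in which *C1qbp* was at 0.00. Among membrane regulators, which protect the host's own cells, 0 of 7 were called, with *Cr1l* at 0.06, *Cd55* at −0.01 and *Cd59a* at 0.24 (adjusted p = 0.363). None of 8 other receptors was called, led by *Calr* at 0.16, *Lrp1* at −0.20 and *Cd93* at 0.14. *Cr2*, the complement receptor of B cells and follicular dendritic cells, is named after its values were seen: it was at 8.09, 8.10 and 8.22 CPM in WT and 17.3, 11.4 and 8.82 CPM in ISM1-/-, a log2 fold change of 0.62 that did not pass (adjusted p = 0.165 from the edgeR QL test), and DESeq2 called it (adjusted p = 0.0297). B cell markers followed the same order within the ISM1-/- libraries, with summed levels of 199, 154 and 115 CPM in replicates 1 to 3. In WT the sums were 107, 97.7 and 112 CPM, where *Cr2* was nearly flat. Of 5 B cell markers 3 were called higher, beside 1.38% of all genes tested. Their part in the level of *Cr2* was not tested.

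Marker genes of other cell types that could supply complement transcripts were read beside these values. Hepatocyte transcripts were almost absent: *Ttr* and *Fgb* were at 0 in every library, *Alb* lay between 0.820 and 1.32 CPM, and the list summed to 3.05 to 3.93 CPM in WT and 2.21 to 2.95 CPM in ISM1-/-, against *C3* at 778 CPM or more in every library. Of 8 fibroblast markers 4 were called lower (summed 2357 to 2465 CPM in WT and 2196 to 2309 CPM in ISM1-/-), as were 4 of 8 adventitial fibroblast markers, 5 of 7 club cell markers, 1 of 7 interstitial macrophage markers, 1 of 7 monocyte markers and 1 of 8 cardiomyocyte markers. Called higher were 2 of 5 plasma cell markers, 1 of 8 mesothelial markers and 1 of 6 alveolar type 1 markers. Over all genes tested, 3.34% were called lower and 1.38% higher. Fitted levels were higher in 3 of 8 fibroblast, 3 of 8 adventitial fibroblast, 2 of 7 interstitial macrophage and 4 of 7 monocyte markers. All club and cardiomyocyte markers had a lower fitted level. A lower fitted level was found in 1 mesothelial, 1 alveolar type 1 and 0 plasma cell markers. In the alveolar type 2, alveolar macrophage, endothelial and erythroid lists 0 genes were called. The summed alveolar type 2 level was lower in ISM1-/-, by a narrow gap (23729 to 24129 CPM in WT and 22537 to 23683 CPM in ISM1-/-). *Sftpc*, the largest part of this sum, overlapped between the genotypes (log2 fold change −0.01). *Sftpb* did not overlap (log2 fold change −0.20, adjusted p = 0.223 from the edgeR QL test), like 21.6% of all genes tested. The fitted level was higher in 2 of the 8 alveolar type 2 markers and lower in 6. The sums of the alveolar macrophage, endothelial and erythroid lists overlapped between the genotypes. So did those of the adventitial fibroblast, interstitial macrophage, monocyte, cardiomyocyte, mesothelial and alveolar type 1 lists. The sums of the fibroblast, club and plasma cell lists did not overlap. Of 11 acute phase and NF-kB genes, *Il1b* was called higher and *Hp* and *Cebpd* lower. The fitted level was higher in 7 and lower in 4 of the 11, with a median log2 fold change of 0.09. The summed level of this list overlapped between the genotypes. *Hp*, which encodes the acute-phase protein haptoglobin, fell by 0.38 on the log2 scale (adjusted p = 0.0426 from the edgeR QL test), whereas *C3* and *C4b*, also acute-phase genes in the liver, had fold changes near 1 as given above. The part of these cell types in the levels of the 9 genes was not tested.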

How the data were processed

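Whole lungs, perfused, from 3 mice of each genotype (WT and ISM1-/-) gave poly-A enriched, strand-specific paired-end libraries. The authors filtered reads, mapped them to GRCm38/mm10 (the submitters' processing notes name CASAVA and STAR) and deposited raw counts per gene, together with FPKM, in which the authors divided counts by library total and gene length. The counting program, its strand setting and its treatment of shared reads are not given in the sources used here.

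The software was R 4.3.3 and edgeR 4.0.16. The filter asked for 0.5 CPM in 1 library or more (18689 genes), scaling was by TMM, and genes were called by the quasi-likelihood test at a Benjamini-Hochberg adjusted p under 0.1. Depth was 37606133 to 42345042 counts per library. Alternatives were DESeq2 1.42.0, limma 3.58.1 on log2(FPKM + 1) and log2(FPKM + 0.1), other scalings, filters and thresholds, a replicate block and leaving out each library. The comparison of likeness without WT replicate 1 and a DESeq2 count at an adjusted p under 0.05 and 2-fold were added after seeing the data. Exact permutation tests were two-sided. Replicates are separate mice, with 1 library each. Overlaps and shared 150-base stretches came from GENCODE release M 21 on GRCm38. Genes named were the 9 genes and *Ism1*, other complement genes that were called or were among the 3 with the highest FPKM of their list, near-copies and overlapping genes, the 5 genes most alike in pattern, and up to 4 genes of a marker list. *Cr2*, *C8b*, *Masp1*, *Masp2* and the genes named beyond the 4 of a marker list fall outside this rule. The 9 genes and all lists were chosen with earlier results of these data known. Some genes that this rule would name are not reported here.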

Additional observations from a re-analysis of the deposited data

How the results depend on the processing

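None of the 9 genes was called under any alternative that gave it a value: over 143 pairs of gene and alternative the lowest adjusted p was 0.374. *Cfb* did not pass the filter on a mean above 2 CPM. The sign turned in 9 pairs, all with 1 library left out, and the log2 fold change then lay from −0.12 to 0.011 in *C1ra*, −0.10 to 0.047 in *C3*, −0.12 to 0.17 in *C4b*, −0.19 to 0.12 in *C5ar1* and −0.056 to 0.44 in *Cfb*. The cause was not tested.

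Over all genes, 1632 were called with no filter beyond 1 count, 455 at an adjusted p under 0.05, 106 with at least 2-fold change, 96 by DESeq2 at 0.05 and 2-fold, and 150 (without WT replicate 2) to 1470 (without ISM1-/- replicate 3) with 1 library left out, against 882. Over all genes tested, same-numbered libraries hardly deviated together from the means of their genotypes (correlations of −0.04, 0.03 and 0.00). With 3 libraries per genotype this cannot exclude a pairing that touches only some genes. A replicate block gave 1105 calls and again 0 of the 9 genes. Among the other complement genes, 4 in place of 2 were called without the filter and 1 with RLE size factors, at an adjusted p under 0.05 or with a 2-fold minimum. With 1 library left out, from 1 to 4 were called. *Cfd* lost its call with limma on log2(FPKM + 1) without a filter (adjusted p = 0.145). The ratio of *C3* to *C1ra* was 20.6 by FPKM and 6.66 per kilobase of all exons. *Cfb* had 41 to 77 counts per library, and how much of its spread is counting error was not tested.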
